A study of Mus musculus with 94 samples.

Results

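The values described here are those of 100 probes that, in kidney tubules of vehicle-treated mice, stood above the uninjured level on day 14 after ischemia-reperfusion injury (IRI) and close to it on days 1 and 7. They were taken from 20175 probes of a whole transcriptome panel measured by digital spatial profiling (DSP), in which probes hybridized to RNA in a tissue section carry barcodes that a UV beam cleaves off in selected areas for counting. The members were chosen by their measured levels. Counts were summed over the tubular segments of each section, divided by the total, multiplied by 1000000 (CPM), and expressed as log2(CPM + 1). The mean level in vehicle-treated sections minus that in control sections was at least 0.75 on day 14, and from 0 to under 0.5 on both day 7 and day 1. In the 4 vehicle-treated sections of days 7 and 14, the macrophage level exceeded the tubular level by less than 1 on average. Of the 20175 probes, 1756 met the day 14 criterion, 530 of these the day 7 criterion as well, 420 also the day 1 criterion, and 328 also the limit on the macrophage level. The 100 with the highest day 14 difference are called the members below. Because these values chose the members, all differences between vehicle-treated and control tubules are given as descriptions, without p-values, and counts of calls in them are not evidence about the members.

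C57BL/6 male mice had received the SYK inhibitor entospletinib or vehicle ahead of IRI of a single kidney. By the study's methods, mice collected on day 1 had no further injection, and in those kept longer entospletinib went on from day 1, daily at first and less often after day 7. Injured kidneys came from days 1, 7, and 14, and the controls were kidneys without injury, described in the labels as contralateral ones. Each of the 7 groups had 2 formalin-fixed sections, 14 in all, which the sample labels tell apart by a prefix without stating in words that each comes from a different mouse. P-values of comparisons between groups therefore measure the spread between these sections. Those of comparisons between regions or stains measure the spread of differences within sections. Areas stained for IBA1 were collected as macrophage segments, and areas stained for PanCK, with or without CD10, as tubular segments, giving 46 and 48 segments. Control, day 1, and day 7 sections had 1 medullary and 2 cortical regions each, and day 14 sections had 2 of each. Tubular sums per section held 9404235 to 25729550 counts and macrophage sums 117693 to 2773456. The files list probes by identifier and pair none with a gene, so members are named by identifier, no role can be given for them, and the stained cell types could not be checked against marker genes. Segments are bulk samples, so more RNA of a kind per cell and more cells carrying it cannot be told apart.

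Tubular epithelium carries most of the oxygen-consuming transport of the kidney and is the main target of ischemia. Surviving tubular cells dedifferentiate, divide, and replace lost cells, and where this repair fails they can remain in an injured state that accompanies inflammation and fibrosis in the transition from acute kidney injury to chronic kidney disease. The outer medulla is poorly oxygenated even at rest and is known for its sensitivity to IRI. SYK is a kinase that signals downstream of immune receptors and is found mainly in leukocytes.

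In tubules of vehicle-treated mice, members had a median of 47.2 CPM on day 14 compared with 17.7 CPM in uninjured controls, and in entospletinib-treated mice the median on day 14 was 18.3 CPM. The day 14 difference from control ranged from 0.97 to 2.67 on the log2 scale with a median of 1.11, whereas the median over all probes was -0.06. The day 7 difference ranged from 0.10 to 0.50 with a median of 0.41, and the day 1 difference from 0.01 to 0.50 with a median of 0.18. All-probe medians were 0.14 on day 7 and 0.11 on day 1. The members were of low to middle abundance in uninjured tubules. Their control level ran from 7.87 to 142 CPM, and from the lowest to the highest of 4 equal bins of all probes ranked by this level they numbered 32, 30, 31, and 7.

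The median member level in tubular sums, as log2(CPM + 1), was 4.07 and 4.42 in the 2 control sections. In vehicle-treated mice the sections of day 1 had 4.46 and 4.49, those of day 7 had 4.77 and 4.49, and those of day 14 had 5.46 and 5.72. In entospletinib-treated mice it was 4.45 and 4.39 on day 1, 4.60 and 4.17 on day 7, and 4.43 and 4.10 on day 14. The 2 vehicle sections of day 14 were the highest of the 14 sections, and those of days 1 and 7 lay above both controls by less. With entospletinib, the sections of each day overlapped the range of the controls. As group means over 2 sections, the median level was 4.24 ± 0.24 (SD, n = 2) in controls, 4.63 ± 0.20 (SD, n = 2) on day 7 with vehicle, 5.59 ± 0.19 (SD, n = 2) on day 14 with vehicle, and 4.27 ± 0.23 (SD, n = 2) on day 14 with entospletinib.

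**Figure D1:**
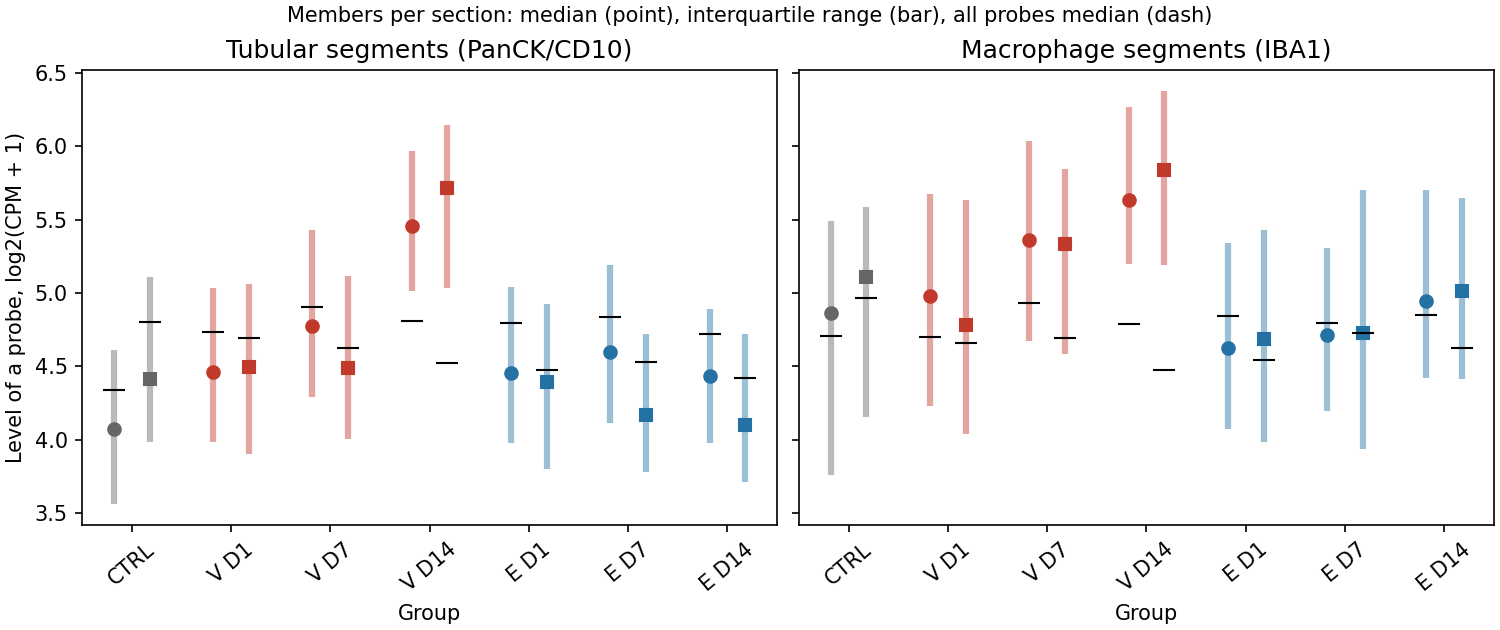
Level of the 100 members, as log2(CPM + 1), in tubular (left) and macrophage (right) sums of each section, for controls (CTRL) and for vehicle (V) or entospletinib (E) on days 1, 7, and 14 (D1, D7, D14). Circles are section 1 and squares section 2, each the median over members; bars span the interquartile range, and dashes mark the median of all probes. Tubular medians of 5.46 and 5.72 in the 2 vehicle sections of day 14 lie above the other 12.

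All 100 members were higher in both vehicle sections of day 14 than in each of the 6 control and earlier vehicle sections, a pattern that the choice of members favored and that 15.9% of all probes showed. Against the 6 entospletinib sections, which the choice did not use, both vehicle sections of day 14 were higher for 98 members, and this held for 21.4% of all probes. The vehicle sections in this count are the ones that chose the members, so it is not independent of the choice.

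Probe RTS0061409 had the largest day 14 difference, 2.67. Its tubular level was 9.68 and 14.5 CPM in controls, 14.5 and 13.1 CPM on day 1, 18.4 and 15.8 CPM on day 7, and 79.4 and 82.1 CPM on day 14 with vehicle. With entospletinib it was 15.4 and 11.6 CPM on day 1, 18.5 and 13.1 CPM on day 7, and 17.3 and 11.4 CPM on day 14. The 2 vehicle sections of day 14 stood apart, and the other 12 sections lay between 9.68 and 18.5 CPM. Within this range, both vehicle sections of day 7 were above both controls.

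Probe RTS0070973 was next, with a difference of 2.23. Its level was 15.5 and 23.9 CPM in controls, 19.9 and 19.0 CPM on day 1, 28.3 and 23.7 CPM on day 7, and 84.3 and 106 CPM on day 14 with vehicle. The 6 entospletinib sections ran from 15.3 to 23.5 CPM, within the range of the control sections apart from the lowest.

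The most abundant member in uninjured tubules, RTS0065164, had 139 and 146 CPM in controls, 154 and 157 CPM on day 1, 197 and 199 CPM on day 7, and 249.7 and 338 CPM on day 14 with vehicle. Its level stepped up on each day without overlap between vehicle groups, and its day 7 difference of 0.47 lay just under the limit of the choice. With entospletinib it had 140.4 and 156 CPM on day 1, 136 and 146 CPM on day 7, and 110.0 and 159 CPM on day 14.

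The second most abundant member, RTS0069579, likewise passed from 76.3 and 74.9 CPM in controls to 102 and 91.4 CPM on day 1, 106.0 and 107 CPM on day 7, and 136 and 163 CPM on day 14. Both vehicle sections of day 1 were already above both controls, so a day 1 difference of 0.35 could lie under the limit of 0.5 while the sections did not overlap. With entospletinib it had 83.5 and 97.5 CPM on day 1, 68.7 and 73.8 CPM on day 7, and 63.7 and 71.1 CPM on day 14, and the sections of these last 2 days were below both controls.

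**Figure D2:**
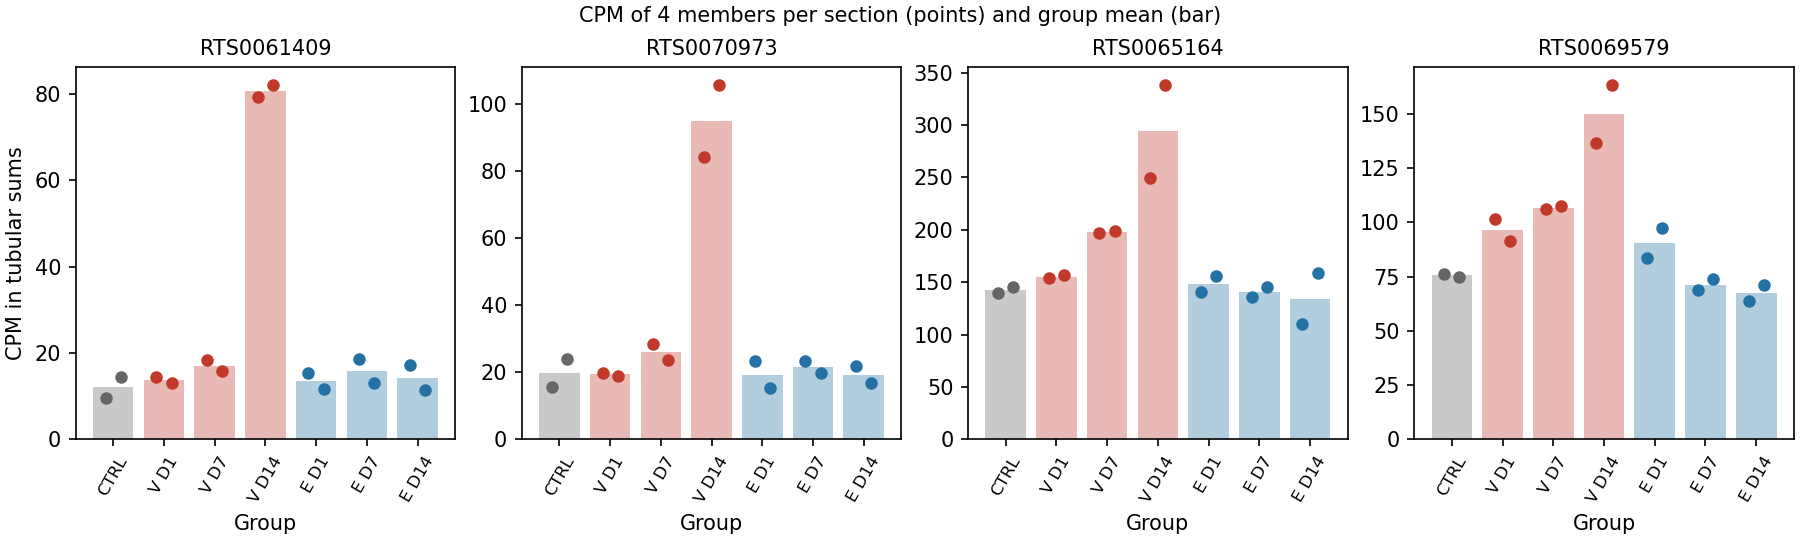
CPM of 4 members in tubular sums: the 2 with the largest day 14 difference and the 2 with the highest control level. Points are the 2 sections of each group and bars their mean, from 0. RTS0061409 and RTS0070973 stand out in the vehicle sections of day 14, whereas RTS0065164 and RTS0069579 lie above both controls on each day with vehicle.

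At the lower end of the list, RTS0075033 and RTS0070332 each had a day 14 difference of 0.97. RTS0070332 had 11.7 and 20.7 CPM in controls, 20.8 and 22.7 CPM on day 1, 24.5 and 19.3 CPM on day 7, and 26.6 and 37.5 CPM on day 14 with vehicle. Its lower section of day 14 was only slightly above its higher section of day 7. The first probes left out by rank, RTS0075617 and RTS0066376, also had differences of 0.97, so that the list ends within a continuous range.

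The description "only by day 14" held in the sums over regions, where the choice set it, and less so in the medulla or the cortex alone. Medullary segments gave only 18.7% and 11.5% of the tubular counts in the vehicle sections of day 1, compared with 51.3% and 37.3% in controls and 49.2% and 63.5% on day 14, so that the day 1 sums mostly describe cortex. In medullary segments alone, the median day 1 difference of the members was 0.54, against 0.21 for all probes. There, 55 of 100 members had a day 1 difference of at least 0.5, as did 20.3% of all probes, and 28 had at least 0.75. Both medullary sums of day 1 were above both medullary controls for 67 members and for 33.1% of all probes. These medullary sums are parts of the sums that chose the members, so the excess over all probes is not independent of the choice. The medullary day 7 difference had a median of 0.26, and the medullary day 14 difference a median of 1.37. Day 14 was the highest of the 3 days in the medulla for 96 members.

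In cortical segments alone, the median difference from control was 0.17 on day 1, 0.45 on day 7, and 0.76 on day 14. Day 14 was the highest of these days in the cortex for 82 members. Only 51 members reached 0.75 on day 14 there, compared with 6.66% of all probes, and 41 had a day 7 difference of at least 0.5, compared with 11.5% of all probes. Members therefore divided into 50 that reached 0.75 on day 14 in both regions, 49 that did so in the medulla alone, and 1 that did so in the cortex alone. The day 14 difference was larger in the medulla for 92 members, with a median gap of 0.66, and for 61.4% of all probes, with a median gap of 0.07. When cortex and medulla were given equal weight, all 100 members stayed at or above 0.75 on day 14, and 29 had a day 1 difference of at least 0.5, as did 8.34% of all probes. The values of both regions made up the sums that chose the members, so none of these counts is independent of the choice.

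The regional pattern varied among the members with the largest differences. In medullary segments RTS0061409 had 11.0 and 17.5 CPM in controls and 135 and 111 CPM on day 14 with vehicle, whereas in cortical segments it had 8.29 and 12.7 CPM in controls and 25.1 and 32.2 CPM on day 14. RTS0070973 differed less between regions, with differences on day 14 of 2.40 in the medulla and 1.98 in the cortex. RTS0061933, the third member by rank, which was picked out after its values were seen, had a day 14 difference of 2.69 in the medulla and -0.04 in the cortex. Its day 1 difference in the medulla was 1.02.

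The median member level took a different course in each region. In the medulla it was 4.17 and 4.45 in controls, 4.88 and 5.06 on day 1, 4.88 and 4.28 on day 7, and 5.98 and 5.88 on day 14 with vehicle. In the cortex it was 3.85 and 4.41 in controls, 4.32 and 4.37 on day 1, 4.70 and 4.51 on day 7, and 4.78 and 5.19 on day 14. Medullary sections of day 1 lay above both controls, and of those of day 7 only section 1 did. Cortical sections of day 1 lay within the range of the controls, and those of day 7 above it. The medulla was higher than the cortex in both vehicle sections of day 14 for 82 members and for 55.0% of all probes, and in both control sections for 38 members and for 44.1% of all probes. These counts, too, come from parts of the sums that chose the members. With a single medullary segment per section outside day 14, the medullary values rest on 2 segments per group.

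**Figure D3:**
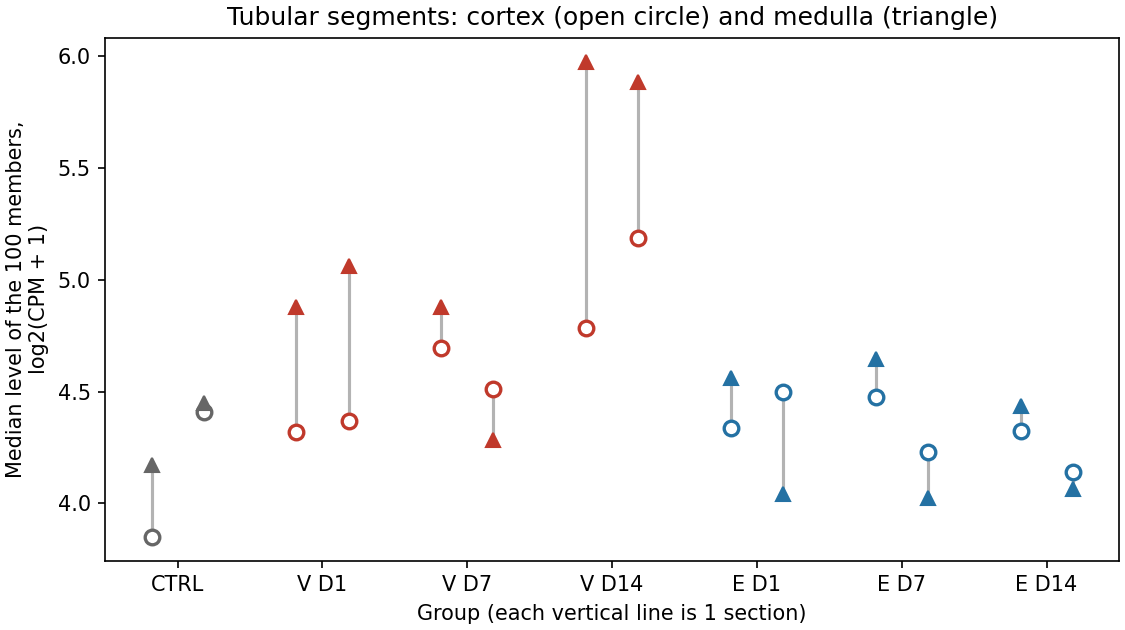
Median level of the 100 members in tubular sums, as log2(CPM + 1), for cortex (open circles) and medulla (triangles) of each section, with a line joining the regions of a section. Groups are named as in the plot of levels by section. The medulla exceeds the cortex in both control sections, by little in section 2 (4.45 against 4.41), and in both vehicle sections of day 1 and of day 14. The medullary medians of day 14 with vehicle, 5.98 and 5.88, are the highest.

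The size of the earlier differences rested on single sections. Control section 1 had a lower median level than control section 2 over the members and over all probes, and without control section 2 the day 7 difference was at least 0.5 for 68 members and 27.7% of all probes. Without section 2 of day 7 it was at least 0.5 for 60 members and 14.0% of all probes. Without control section 1, the day 14 difference was at least 0.75 for 86 members. Scaling by the upper quartile instead of the total moved the median day 14 difference of all probes from -0.06 to -0.27 and that of the members from 1.11 to 0.90, and 80 of the 100 members then still met every criterion.

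Entospletinib-treated tubules on day 14 were near the uninjured level for most members. Differences were fitted by edgeR's quasi-likelihood test on section sums scaled by the upper quartile. Against control, the fitted log2 fold change of the members on day 14 had a median of 0.06, from -0.60 to 0.66, compared with a median of 0.92 for vehicle against control. Entospletinib against vehicle on day 14 had a median of -0.92, whereas all probes had a median of 0.33. These comparisons share vehicle or control sums with the choice of members. For a call, the adjusted p had to be below 0.05 and the log2 fold change beyond 1 in size. Under these thresholds, 38 members passed as lower with entospletinib than vehicle, where 3.18% of all probes did, and 40 passed as higher with vehicle than control, where 3.53% of all probes did. Neither count is evidence about the members beyond their choice.

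On days 1 and 7, the fitted median of entospletinib against vehicle was -0.04 and -0.12 for the members, and -0.01 and 0.12 for all probes. No member passed the thresholds on either day, where 0% and 0.649% of all probes passed as lower, and 0% and 0.0149% as higher. The choice kept only probes whose vehicle level on these days was close to control, so it made such calls unlikely, and nothing is read from their absence.

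Within the entospletinib-treated groups, whose samples the choice did not use, no rise of the members by day 14 was detected in tubules. Between days 14 and 7 the fitted log2 fold change of the members ranged from -0.30 to 0.36 with a median of -0.07, next to a median of -0.05 over all probes. By edgeR's quasi-likelihood test no member was called, nor was any of the 20175 probes (0% in either direction). No member had an unadjusted p under 0.05, where only 0.297% of all probes were higher and 0.456% lower at that level. With shares this low, nothing is read from that absence. DESeq2 called no member either. The 95% interval of a single member's log2 fold change extended a median of 0.40 to either side, and its upper limit was under 0.75 for 97 of 100 members.

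Between days 14 and 1 with entospletinib, the fitted log2 fold change of the members had a median of 0.01, with a range of -0.75 to 0.60 and an all-probe median of 0.03. No member was called, where 0.0347% of all probes were called higher and 0.248% lower. At an unadjusted p under 0.05, 1 member was higher and 2 were lower, next to 4.46% and 4.26% of all probes, and DESeq2 called none. The upper 95% limit was under 0.75 for 96 members. Both sections of day 14 were above all 4 earlier entospletinib sections for no member, compared with 1.67% of all probes, and below all of them for 2 members, compared with 6.11%.

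Among these members, RTS0076460 and RTS0077177 had the smallest unadjusted p in each direction between days 14 and 7. RTS0076460 had 106 and 93.5 CPM on day 14 and 87.5 and 74.3 CPM on day 7 (log2 fold change 0.36 ± 0.25 SE, adjusted p = 1.00 by edgeR). RTS0077177 had 10.4 and 8.78 CPM on day 14 and 13.7 and 10.9 CPM on day 7 (log2 fold change -0.30 ± 0.16 SE, adjusted p = 1.00 by edgeR). The sections of the 2 days did not overlap for either probe, and neither difference passed the test.

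Between days 14 and 1, RTS0067749 had 26.7 and 38.0 CPM on day 14 and 24.5 and 24.6 CPM on day 1 (log2 fold change 0.51 ± 0.19 SE, adjusted p = 0.40 by edgeR), and without section 2 of day 14 its log2 fold change was 0.15. RTS0068909 had 19.1 and 24.8 CPM on day 14 and 35.3 and 43.7 CPM on day 1 (log2 fold change -0.75 ± 0.23 SE, adjusted p = 0.22 by edgeR). Its adjusted p was 0.0409 with the section number as a block and 0.00691 with regions as replicates in DESeq2, where the log2 fold changes of -0.75 and -0.78 were under the fold threshold, and 1.00 without section 2 of day 1. With vehicle on day 14 the same 2 probes had 51.6 and 68.5 CPM, and 47.4 and 70.1 CPM, above all these values.

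Medulla and cortex were compared within the 6 entospletinib-treated sections, with the section in the model. The members had no common lean toward the medulla there. Their fitted log2 fold change had a median of 0.02, next to 0.06 for all probes, and under scaling by trimmed means the members' median was -0.02. Above 0 were 53 members and 67.1% of all probes, and below 0 were 47 members and 32.9% of all probes. At an unadjusted p under 0.05 by edgeR, 14 members were higher and 11 lower, next to 9.00% and 7.49% of all probes. No member was called, where 0.169% of all probes passed as higher in the medulla and 0.292% as lower. At an adjusted p under 0.05 alone, 3 members were higher and 3 lower, where 1.99% of all probes were higher and 2.71% lower, and without section 1 of day 7 these were 2 and 1 members. DESeq2 called no member.

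RTS0076256 was higher in the medulla (log2 fold change 0.60 ± 0.082 SE, adjusted p = 0.000389 by edgeR). Its medullary level was 55.4 and 74.96 CPM on day 1, 55.0 and 37.6 CPM on day 7, and 59.3 and 44.9 CPM on day 14, against cortical levels of 32.7 and 53.2 CPM, 30.2 and 34.4 CPM, and 38.2 and 32.6 CPM in the same order. The medulla was higher in 6 of 6 sections. In control sections the probe also had more in the medulla, 59.1 and 44.3 CPM against 26.6 and 32.8 CPM.

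RTS0062287 was lower in the medulla (log2 fold change -0.54 ± 0.11 SE, adjusted p = 0.00832 by edgeR). Its medullary level was 50.4 and 64.1 CPM on day 1, 41.4 and 40.3 CPM on day 7, and 37.7 and 39.2 CPM on day 14, against cortical levels of 70.9 and 70.4 CPM, 80.8 and 55.4 CPM, and 57.2 and 70.0 CPM. The medulla was lower in 6 of 6 sections. On day 14 with vehicle, where the member was chosen, the medullary level was 121 and 135 CPM and the cortical level 94.7 and 137 CPM. The medulla was thus higher in section 1, and the regions were nearly equal in section 2.

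Members were also counted in macrophage segments. The choice capped the excess of macrophages over tubules in vehicle-treated sections at 1, which bounds that excess by construction. In the entospletinib-treated sections, which the choice did not use, macrophage segments had more of many members than the tubular segments beside them. With the section in the model, the fitted log2 fold change of macrophages against tubules had a median of 0.35 over the members and -0.09 over all probes, and 84 members and 37.7% of all probes were above 0. At an adjusted p under 0.05 by edgeR, 32 members were higher in macrophage segments, where 4.94% of all probes were, and 2 were lower, where 5.47% were. Only 1 member also passed the fold threshold, where 1.63% of all probes did, and 5 did so without section 1 of day 7. Without section 1 of day 14, 16 members were higher and 0 lower at that adjusted p, and without section 2 of day 14, 17 were higher and 1 lower. Macrophage sums were far shallower, with a median of 18 counts per member and section against 361 in tubules, and after thinning all sums to the lowest total no member passed, with 11 members left to test.

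The called member was RTS0062086 (log2 fold change 1.04 ± 0.15 SE, adjusted p = 6.92e-06 by edgeR). With entospletinib, its macrophage level was 41.5 and 64.3 CPM on day 1, 41.0 and 42.5 CPM on day 7, and 68.8 and 71.0 CPM on day 14. The tubular level was 22.1 and 27.4 CPM, 25.3 and 21.3 CPM, and 31.3 and 20.7 CPM on the same days. Macrophages were higher in 6 of 6 sections. Without section 2 of day 14, the log2 fold change was 0.91, under the fold threshold.

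RTS0070336 was lower in macrophages (log2 fold change -0.72 ± 0.18 SE, adjusted p = 0.00663 by edgeR). It had 23.7 and 17.3 CPM on day 1, 28.4 and 34.0 CPM on day 7, and 18.6 and 15.2 CPM on day 14 in macrophage segments with entospletinib. The tubular values were 40.2 and 25.8 CPM, 37.6 and 27.1 CPM, and 35.6 and 25.7 CPM. Macrophages were lower in 5 of 6 sections, and the adjusted p was 0.0559 without section 1 of day 14 and 0.0616 with DESeq2.

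**Figure D4:**
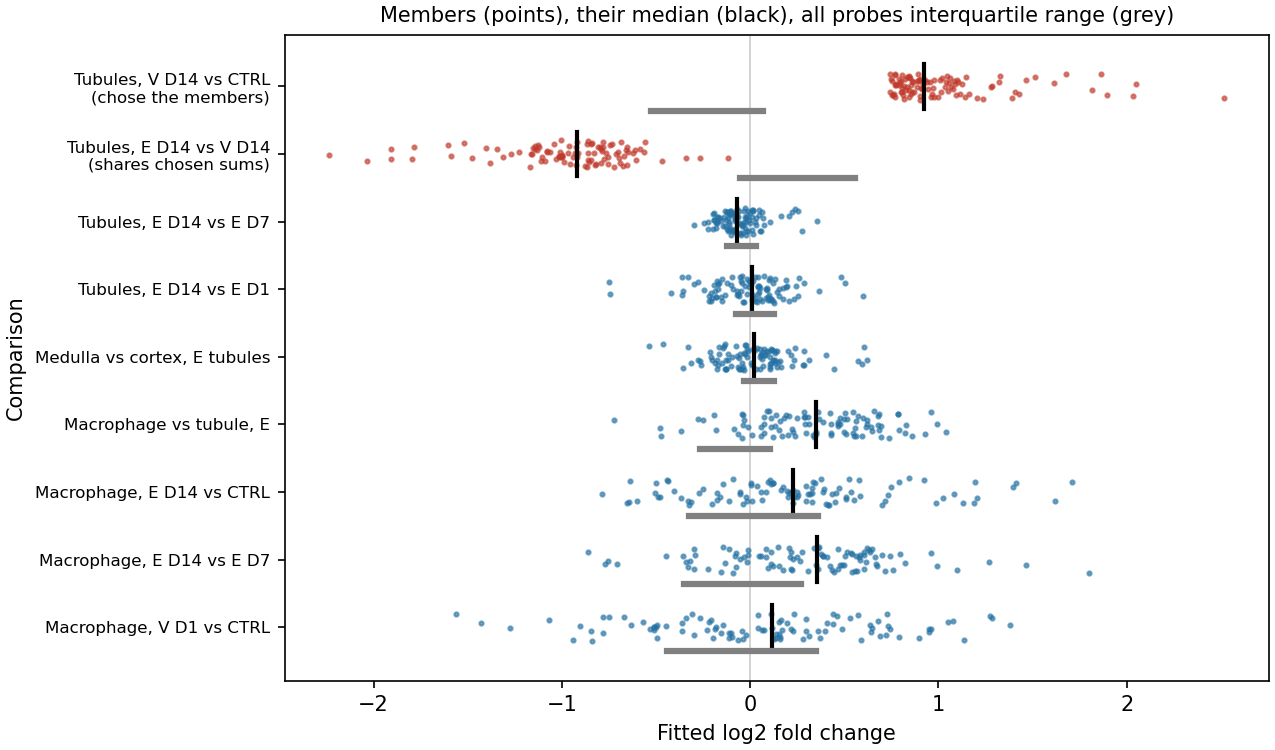
Fitted log2 fold change of each member (points) in 9 comparisons, with the median of the members (black line) and the interquartile range of all probes (grey bar). Red points are comparisons that chose the members or share their sums and blue points comparisons that do not; V, E, and CTRL are vehicle, entospletinib, and control, and D is the day. Members lie around 0 in the entospletinib comparisons between days in tubules, with medians of -0.07 and 0.01, and mostly above 0 for macrophages against tubules, with a median of 0.35.

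The median member level in macrophage segments of vehicle-treated mice was above both controls on day 7 and higher again on day 14. It was 4.86 and 5.11 in controls, 4.98 and 4.78 on day 1, 5.36 and 5.34 on day 7, and 5.63 and 5.83 on day 14. The day 7 and day 14 macrophage sums entered the choice through the cap, so the following counts are descriptions. On day 14, both vehicle sections were above both controls for 78 members, compared with 21.2% of all probes. The fitted log2 fold change of vehicle against control had a median of 0.45 on day 7, where 80 members were above 0 and all probes had a median of 0.02. The members' median for the same contrast in tubules was 0.25, but the choice itself held the tubular day 7 difference under 0.5. The medians of macrophages and tubules on day 7 are therefore not comparable. On day 14 the macrophage log2 fold change had a median of 0.90 over the 98 members that passed the filter on low counts. Of these, 17 passed the thresholds as higher, where 3.55% of all probes did. RTS0061409 had 31.4 and 20.1 CPM in control macrophages and 111 and 109.7 CPM on day 14 with vehicle. How much RNA of neighboring cells is counted in a segment was not tested.

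Vehicle on day 1 against control was a macrophage comparison that the choice did not use, and no difference of the members was detected in it. The 98 members tested had a median log2 fold change of 0.11, next to -0.05 for all probes, and none was called, where 0.480% of all probes were called higher and 0.237% lower. At an unadjusted p under 0.05 by edgeR, 4 members were higher and 5 lower, next to 5.66% and 4.78% of all probes, and DESeq2 on the sums called none. RTS0069579 had 157 and 130 CPM on day 1 and 69.0 and 90.6 CPM in controls, with no overlap (log2 fold change 0.90 ± 0.31 SE, adjusted p = 0.21 by edgeR). RTS0077746 had 30.6 and 28.7 CPM on day 1 and 25.1 and 90.6 CPM in controls (log2 fold change -1.07 ± 0.39 SE, adjusted p = 0.25 by edgeR), and the day 1 values lay between the 2 controls. Without control section 2 its log2 fold change was 0.21.

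In entospletinib-treated mice, the median member level in macrophage segments was 4.63 and 4.69 on day 1, 4.71 and 4.73 on day 7, and 4.94 and 5.01 on day 14. The day 14 medians were the highest of the 6 entospletinib sections and lay within the range of the 2 controls. Between days 14 and 7, 72 of the 98 members tested had a fitted log2 fold change above 0, as did 46.3% of all probes, with a median of 0.35 next to -0.04 for all probes. None was called, where 0.00539% of all probes were called higher and 0% lower. At an unadjusted p under 0.05 by edgeR, 9 members were higher and none lower, next to 3.06% and 2.94% of all probes, and DESeq2 called none. RTS0071575 had 46.5 and 49.0 CPM on day 14 and 15.8 and 34.0 CPM on day 7 (log2 fold change 1.27 ± 0.42 SE, adjusted p = 0.48 by edgeR), and its log2 fold change was 0.58 without section 1 of day 7, 0.65 from the cortex by itself, and 2.54 from the medulla by itself. RTS0067097 had 29.7 and 27.1 CPM on day 14 and 41.0 and 68.0 CPM on day 7 (log2 fold change -0.77 ± 0.40 SE, adjusted p = 0.85 by edgeR). The sections of neither probe overlapped, and section 2 of day 7 had the lowest total of all macrophage sums, 117693 counts.

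Against control, the macrophage segments of day 14 with entospletinib had a median log2 fold change of 0.23 over the members and 0.01 over all probes. No member was called, nor was any of the 18541 probes tested (0% in either direction). At an unadjusted p under 0.05 by edgeR, 4 members were higher and 1 lower, next to 3.32% and 2.02% of all probes, and DESeq2 called none. Without section 2 of day 14 the median was 0.03. RTS0067749 had 44.6 and 109.9 CPM on day 14 and 25.1 and 33.5 CPM in controls (log2 fold change 1.40 ± 0.45 SE, adjusted p = 0.74 by edgeR), and without section 2 of day 14 its log2 fold change was 0.54. RTS0075264 had 65.0 and 47.3 CPM on day 14 and 75.3 and 101 CPM in controls (log2 fold change -0.65 ± 0.31 SE, adjusted p = 0.93 by edgeR). The 95% interval of a member's log2 fold change extended a median of 0.97 to either side here, compared with 0.40 in tubules.

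Correlations between members were described in entospletinib-treated tubules alone, with no value for pairs of other probes to set beside them. Over the 22 tubular segments of entospletinib-treated sections, the correlation between the levels of 2 members had a median of 0.21 over all 4950 pairs, with an interquartile range of -0.17 to 0.50. Whether this is low for pairs of probes was not tested. The shallowest of these segments held 77621 counts, with 15 members lacking any count, and another held 125254, with 11 members lacking any. Segments of a section share its depth and staining, and genes are not independent replicates.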

How the data were processed

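The authors deposited, for each segment, raw counts of unique molecular identifiers per probe, which their GeoMx NGS Pipeline (3.1.1.5 per the file headers) had produced before any normalization or removal of background. The 94 segments of 14 sections were assigned to 7 groups by their labels, and all regions with the same section and stain were added up, which makes the section the replicate (n = 2). Levels are log2(CPM + 1). The members and comparisons were chosen with earlier results of these data known.

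Tests with p-values are given for the 7 comparisons in which the choice of members used the sums of neither side. Others were fitted alike and are given as descriptions. Upper quartile normalization, edgeR's filterByExpr (minimum count 10, minimum total 15), and the quasi-likelihood test of edgeR 4.0.16 with robust estimation in R 4.3.3 were used, with Benjamini-Hochberg adjustment over all probes of a comparison and none across comparisons. The 14 sums of a stain shared an estimate of the spread, so sums that the choice used entered the p-values between groups through it. Comparisons of regions or stains used the entospletinib sections alone, with the section as a term. Calls needed an adjusted p below 0.05 and a log2 fold change beyond 1 in size. Intervals are 95% limits from the fit for each member alone. The tests were checked on simulated counts. Of probes changed 2-fold, 41.8% were called between days 14 and 7 with entospletinib in tubules and 46.3% between medulla and cortex. For macrophages against tubules it was 31.3%, and for macrophages of day 14 with entospletinib against control 7.69%. At 3-fold, these shares were 97.0%, 100%, 100%, and 47.8% in the same order. A 2-fold change equals the fold threshold, which by itself holds down the shares at 2-fold. Those shares therefore do not measure the power of the test alone, though they show that a 2-fold change can be missed. At 3-fold, changes were missed mainly between groups of macrophage segments. Probes named were the 2 members highest and the 2 lowest in day 14 difference, the 2 next below, the 2 highest in controls, and in each comparison and direction the 2 called members with the smallest adjusted p or, where none was called, the 1 with the smallest p.

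Alternatives were normalization by trimmed means (TMM), DESeq2 (version 1.42.0), no filter, omission of 2 second tubular segments, thinning to equal totals, the section number as a block, single regions, regions as replicates, other scalings and pseudocounts of the levels, and omission of each section. The effect of regions, sections, scaling, and pseudocount on days 1 and 7 was added after the data were seen. Negative probes could not be told from others, so background was not subtracted, and no segment was left out. Background counts that remain would pull fold changes of scarce probes toward 0.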

Additional observations from a re-analysis of the deposited data

Results flagged for a closer look

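Among 14 groups of 4 to 10 segments examined for a segment far from the rest, a single one stood out, and chance alone marks about 1 in 20 groups. Of the 6 macrophage segments of day 7 with entospletinib, a cortical segment of section 2 had a median member level of 5.55 as log2(CPM + 1), and the next highest had 4.94. The gap was 0.63 of the range of the group. The segment held 21736 counts, 49 of its members had no count, and the median over all probes in it was also 5.55, so the value is the level of the smallest count that such a total allows and is not particular to the members.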

How the results depend on the processing

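The median day 14 difference of the members from control in vehicle-treated tubules, 1.11, was 0.90 with upper quartile scaling, 0.76 in cortical and 1.37 in medullary regions alone, and 0.96 to 1.32 without 1 section. The members at 0.75 or above on day 14, 100 by choice, were 51 in cortical regions alone and 86 to 99 without 1 section. Members at 0.5 or above, 0 by choice on both earlier days, were 1 on day 1 and 7 on day 7 with a pseudocount of 0.5, 3 and 41 in cortical regions, 55 and 23 in medullary regions, and 29 and 16 with equal weights of the regions. Without 1 section they were 1 to 30 on day 1 and 3 to 68 on day 7.

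For macrophages against tubules with entospletinib, 1 member was called, and 3 with TMM, 2 with DESeq2, 0 after thinning, and 1 to 5 without 1 section. At an adjusted p under 0.05 alone, the 34 members became 0 after thinning and 16 to 36 without 1 section. For medulla against cortex, the 6 members at that adjusted p became 10 with TMM, 10 with DESeq2, and 3 to 7 without 1 section, the lowest without section 1 of day 7. The number of members called stayed at 0 in the other comparisons under every alternative run, except that regions as replicates with DESeq2 gave 1 between vehicle on day 1 and control in macrophages, RTS0077746, at a log2 fold change of -1.16 (adjusted p = 0.0452).

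Median log2 fold changes of the members in macrophages moved after thinning, which left 26 members to test, to -0.0498 for entospletinib on day 14 against control, -0.00896 for day 14 against day 7, and -0.0039 for vehicle on day 1 against control. The first was also 0.37 in medullary regions alone and 0.0298 to 0.30 without 1 section, and the second 0.20 in cortical regions alone and 0.28 to 0.48 without 1 section. RTS0077746 changed sign to 0.21 after thinning and ranged from -1.44 to 0.21 without 1 section, the latter without control section 2, and RTS0076460 to -0.0063 in cortical regions alone. The cause was not tested for any of these.

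The labels do not state that sections of the same number belong together, but region numbers run on through all groups within each prefix. The main tests between groups left the section number out, so they ignore any such pairing. Same-numbered tubular sums deviated together with a correlation of -0.55 to 0.72 over 21 pairs of groups (median 0.33, over 0.1 in 15), of 0.72 between days 14 and 7 and 0.52 between days 14 and 1 with entospletinib, and macrophage sums with -0.10 to 0.27. With the number as a block, 0 members were called in each of the 5 comparisons between groups, and their median between days 14 and 7 with entospletinib in tubules was -0.07. The block raised the probes called from 57 to 105 between days 14 and 1 with entospletinib in tubules, and from 133 to 252 between vehicle on day 1 and control in macrophages. The stains and regions of a section are paired by origin. Without that block, 2 members were called between macrophages and tubules, and 1 member was at an adjusted p under 0.05 between medulla and cortex, where RTS0062287 had an adjusted p of 0.0546. Macrophage depth limits all macrophage comparisons, since a member had a median of 18 counts in a sum.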
